A study of Mus musculus with 12 samples.

Results

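The 10 genes described here encode the core of the inflammasome and of pyroptosis in mouse macrophages. They are the sensors Nlrp3, Aim2, Nlrc4, Nlrp1b, Naip2 and Naip5, the adaptor Pycard (ASC), the caspases Casp1 and Casp4, and the pore former Gsdmd. The members were taken by gene symbol from the deposited expression tables. All 10 of 10 had a row among 12441 genes, and all 10 passed the filter on low values in every comparison.

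An inflammasome is a protein complex that assembles in the cytosol when a sensor meets a microbial product or a sign of damage. The sensor recruits ASC, ASC clusters caspase-1, and caspase-1 matures interleukin-1β and interleukin-18 and cuts gasdermin D, whose freed end forms pores in the plasma membrane and starts a lytic death called pyroptosis. In a parallel, non-canonical route the caspase encoded by mouse Casp4 (also called caspase-11) binds cytosolic lipopolysaccharide (LPS) itself and cuts gasdermin D. In macrophages a first signal such as LPS at Toll-like receptor 4 is known to raise the transcripts of several of these components before any complex forms.

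RNA was sequenced from bone marrow-derived macrophages, primary cells grown for 6 days with 10% L929-conditioned medium as the source of macrophage growth factor. The 4 groups, of 3 libraries each, were cells homozygous for D316Y in COQ6 with LPS, wild-type (WT) cells with LPS, D316Y cells without stimulation and WT cells without stimulation. LPS was given at 100 ng/mL for 24 h. COQ6 is an enzyme of coenzyme Q biosynthesis. The labels do not say whether replicates came from separate mice or cultures, so a p-value reflects only how far these libraries scatter. Only RNA was measured, so nothing here bears on complex assembly, cleavage or cell death.

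Library depth was 32.8 to 47.2 M reads in the deposited table. All 10 of 10 macrophage markers fixed for the check had a row, with summed levels of 54968 to 63812 CPM (read counts scaled to a common library total) in D316Y cells with LPS, 64695 to 70847 in WT cells with LPS, 32625 to 35644 in unstimulated D316Y cells and 35230 to 39509 in unstimulated WT cells. Of 10 neutrophil markers, 6 had a row, and their sums were 50.3 to 60.2 and 41.7 to 63.7 CPM with LPS in D316Y and WT cells, against 21.0 to 34.6 and 13.9 to 24.1 CPM without. These markers did not move together. S100a8, Camp and Mmp8 had higher means with LPS in both genotypes, and Ltf and Ngp had lower means. S100a9 had a lower mean with LPS in D316Y cells and a higher one in WT cells. Dendritic cell markers (4 of 7 with a row) summed to 5.05 CPM at most and stromal markers (3 of 5) to 4.92 CPM at most, while none of 7 lymphocyte and none of 5 erythroid markers had a row. The part of the neutrophil and stromal differences in the results was not tested. In bulk samples, fewer cells of a type and less RNA per cell cannot be told apart. The unstimulated replicate 1 libraries of both genotypes had a lower share of mitochondrial reads (0.949% in D316Y and 0.449% in WT cells) than the other 4 unstimulated libraries. For the members, calls and signs that change without these libraries are given both ways. The wider pathway list further below was not examined without them.

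Levels are log2 CPM as the authors scaled them, listed for replicates 1, 2 and 3 of a group. "Passed" means an adjusted p under 0.05 in limma, a linear model fitted to all genes, with Benjamini-Hochberg adjustment over all genes tested.

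Compared per kilobase of exon, the members fell into an abundant and a scarce set in every group. Casp1, Gsdmd and Pycard were the top 3 throughout. In D316Y cells with LPS, Casp1 averaged 93.8 ± 12.2 RPKM (CPM divided by the exon length in kilobases), Gsdmd 74.7 ± 8.32 and Pycard 69.4 ± 2.17 (SD, n = 3). The values of neighbours in that order overlapped, so the place of Gsdmd was not resolved. All Casp1 values, 79.8 or more, lay above all Pycard values, 71.0 or less. In WT cells with LPS they averaged 100.1 ± 16.0, 76.2 ± 1.89 and 70.2 ± 18.8 RPKM, and there Casp1 lay clear of Gsdmd. Casp4 came next in each group, clear of both neighbours, at 20.7 ± 2.74 and 20.1 ± 3.24 RPKM with LPS in D316Y and WT cells, against 6.89 ± 0.899 and 7.80 ± 0.625 RPKM without. Among the sensors Aim2 was highest, at 8.63 ± 1.09 and 7.51 ± 0.816 RPKM with LPS in D316Y and WT cells, against 4.76 ± 0.860 and 4.85 ± 0.316 RPKM without, though in unstimulated D316Y cells its values overlapped those of Nlrp3. Nlrp3, Naip2, Nlrc4 and Naip5 lay between 1.54 and 4.85 RPKM as group means. Nlrp3 and Naip2 overlapped in every group. Nlrp1b was lowest in all 4 groups, at 0.827 ± 0.180 and 0.521 ± 0.142 RPKM with LPS in D316Y and WT cells, against 1.61 ± 0.695 and 1.07 ± 0.407 RPKM without. In unstimulated D316Y cells its values overlapped those of Nlrc4.

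**Figure D1:**
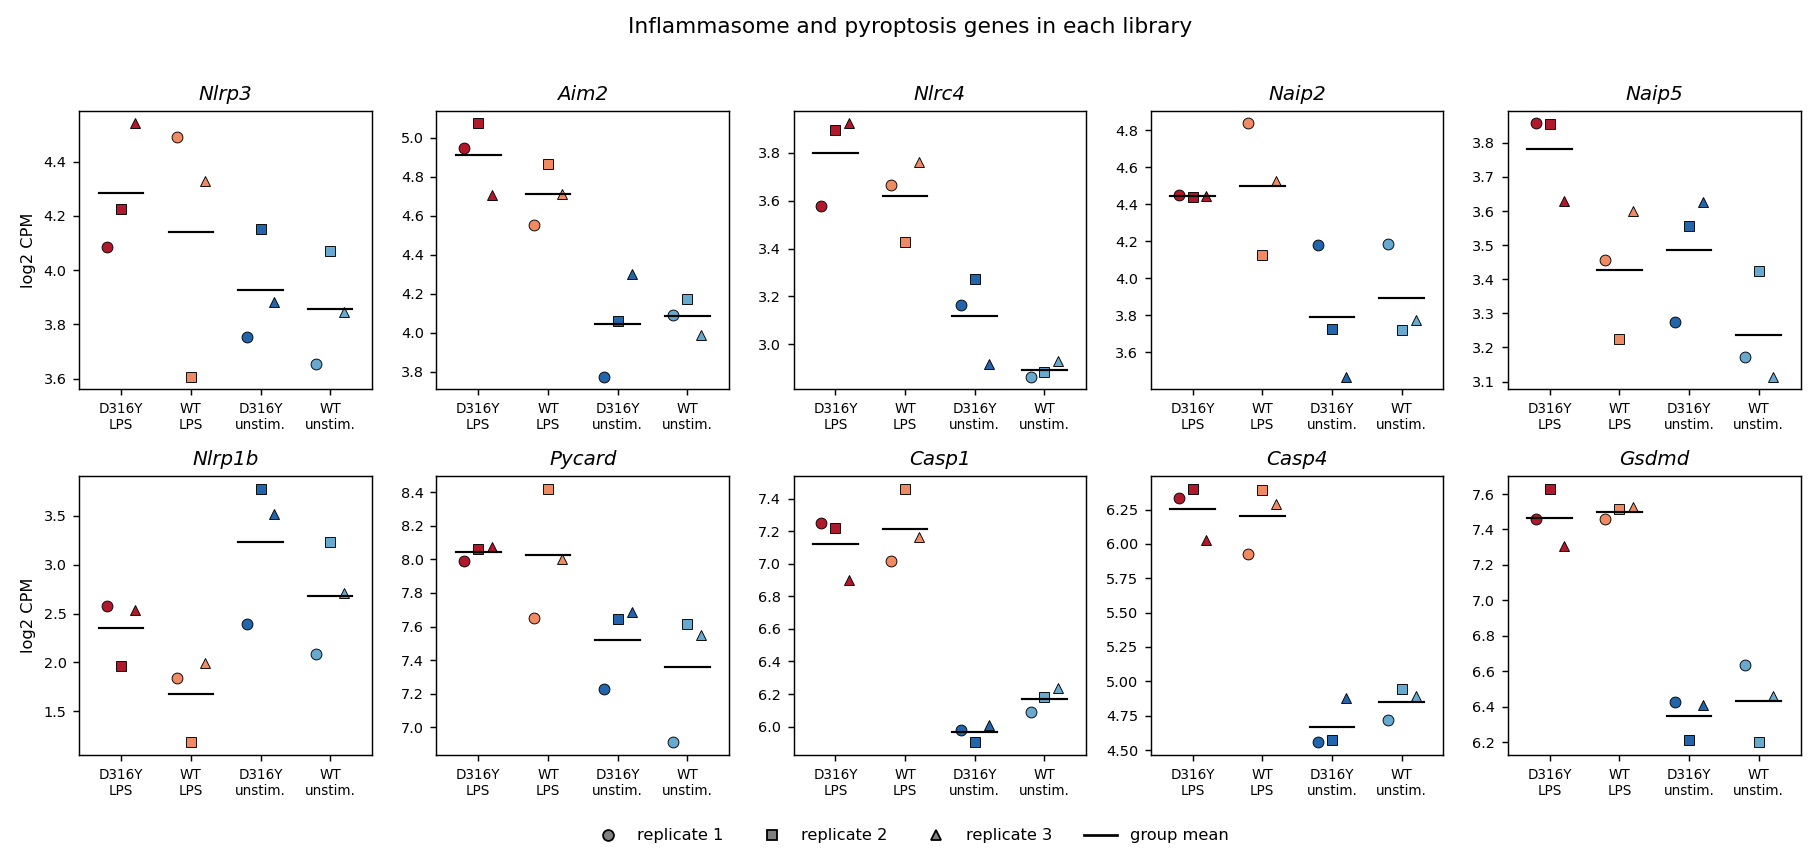
Level of each of the 10 genes in each of the 12 libraries (vertical axis, log2 CPM; points, libraries; bars, group means of 3), with the groups D316Y LPS, WT LPS, D316Y unstimulated and WT unstimulated. Casp1, Casp4, Gsdmd, Aim2 and Nlrc4 sit higher in all LPS libraries than in all unstimulated libraries of the same genotype, whereas Nlrp3 overlaps and Nlrp1b lies lower or overlaps.

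The first question was how LPS moved these genes in each genotype. The executioners rose most: Casp4 reached 3.00 times its unstimulated level in D316Y cells and 2.55 times in WT cells, and Casp1 and Gsdmd about doubled in level in both. Aim2, Nlrc4 and Naip2 rose by less in both genotypes, and Pycard passed in WT cells but not in D316Y cells. Nlrp3 and Naip5 did not pass in either genotype, and Nlrp1b was the one member with a lower mean after LPS. In D316Y cells 6 of 10 members passed as higher and 0 as lower in limma (8 of 10 had an unadjusted p under 0.05, among them Nlrp1b as lower, beside 46.3% of all genes). Of all 11918 genes tested, 38.1% passed in D316Y cells, 19.2% as higher and 18.9% as lower. In WT cells 7 of 10 passed as higher and 1, Nlrp1b, as lower, beside 36.5% of all genes, 17.8% as higher and 18.7% as lower; 8 of 10 members and 45.1% of all genes had an unadjusted p under 0.05. The median log2 difference of the members was 0.67 in D316Y cells and 0.65 in WT cells, against -0.03 and -0.01 over all genes tested. Library values did not overlap between LPS and unstimulated cells for 8 of 10 members in D316Y cells (52.6% of all genes) and 7 of 10 in WT cells (46.3%).

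These changes are relative to the authors' scaling. Their effective library size was 0.826 to 0.922 of the reads in the table with LPS and 1.19 to 1.32 of them without. When each library was instead scaled to its total reads, an alternative chosen after the values were seen, the median gene moved to -0.54 (log2) in D316Y cells and -0.52 in WT cells, and the share of passing genes that were higher dropped to 15.3% and 13.6%, against 50.5% and 48.7% with the authors' scaling. Casp1, Casp4 and Gsdmd passed as higher under both scalings in both genotypes. Per total reads Nlrp1b passed as lower in both, by -1.39 in D316Y cells (adjusted p = 0.0105, limma) and -1.51 in WT cells (adjusted p = 0.00670). Aim2, Nlrc4 and Naip2 in both genotypes and Pycard in WT cells did not pass per total reads, and the differences of Nlrp3 and Naip5 turned negative. Measured from the median gene, all of them had a positive difference. That step largely restores the authors' scaling, whose median gene lay at -0.03 in D316Y and -0.01 in WT cells, so it is no separate check. The directions below are those of the authors' scaling.

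**Figure D2:**
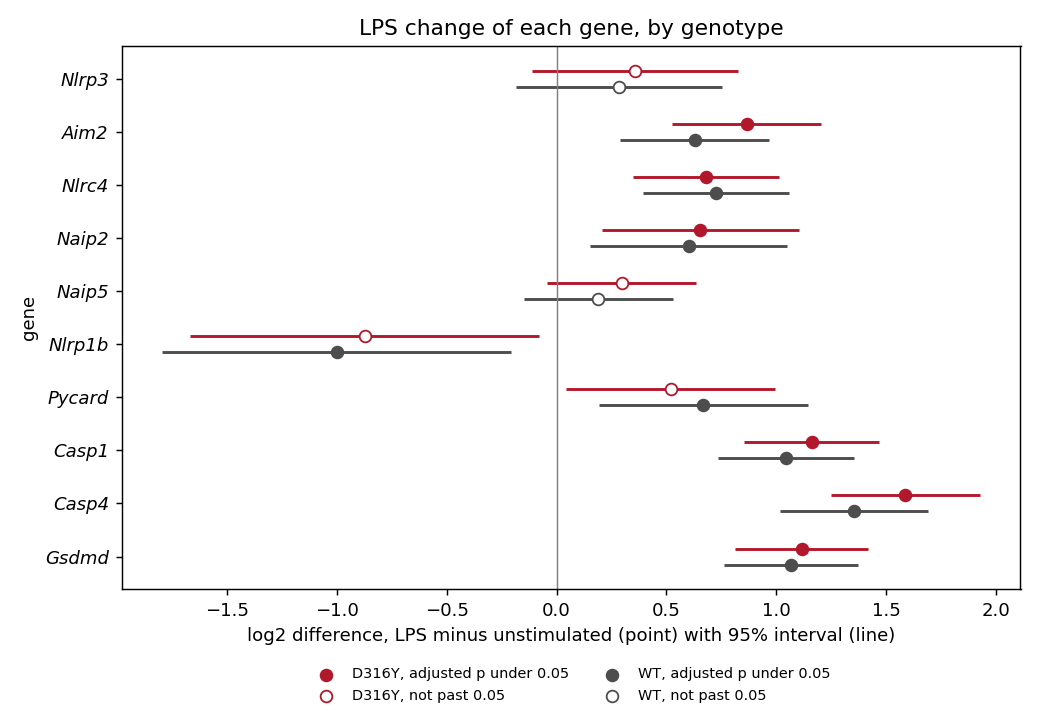
Change with LPS of each member (horizontal axis, log2 difference, LPS minus unstimulated; points, limma estimates; bars, 95% intervals) in D316Y and in WT cells. Casp4 has the largest estimate in both genotypes, 1.59 and 1.35, and Nlrp1b is on the negative side, at -0.87 and -1.0.

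Among the sensors, Aim2, which binds cytosolic double-stranded DNA, rose in both genotypes. With LPS it stood at 4.95, 5.07 and 4.71 log2 CPM in D316Y cells and at 4.55, 4.87 and 4.71 in WT cells. Without LPS the values were 3.77, 4.06 and 4.30 in D316Y cells and 4.09, 4.17 and 3.99 in WT cells. All LPS libraries were above all unstimulated libraries. The log2 rise was 0.87 in D316Y cells (SE 0.16, adjusted p = 0.000632, limma) and 0.63 in WT cells (SE 0.16, adjusted p = 0.00646).

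Nlrc4, which joins NAIP proteins that have bound bacterial flagellin or secretion-system parts, likewise passed as higher in both. Its levels with LPS were 3.58, 3.90 and 3.92 log2 CPM in D316Y cells and 3.66, 3.43 and 3.76 in WT cells. Unstimulated D316Y cells had 3.17, 3.27 and 2.92 and unstimulated WT cells 2.86, 2.88 and 2.93. The groups did not overlap within either genotype. The log2 rise was 0.68 in D316Y cells (SE 0.15, adjusted p = 0.00323, limma) and 0.73 in WT cells (SE 0.15, adjusted p = 0.00225).

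Naip2 and Naip5 are the mouse receptors that hand a bacterial ligand to Nlrc4: Naip2 recognises the inner rod of type III secretion systems and Naip5 recognises flagellin. They are close paralogs on chromosome 13 (GRCm38, minus strand; Naip2 at 100144063 to 100202092, Naip5 at 100211739 to 100246323), and they share part of the sequence around their RefSeq start sites. The promoter windows of the pair (GRCm38.p6; 300 bases each) were aligned, and the best local match covered 134 bases at their downstream end, 123 of them identical (91.8%). The rest of the windows lay outside the match. The stretch is shown because it is the part of the windows that the pair has in common. Capitals mark the 11 bases that differ, each line 5′ to 3′ on the minus strand, for chr13:100202074-100202207 and chr13:100247295-100247428.

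Naip2: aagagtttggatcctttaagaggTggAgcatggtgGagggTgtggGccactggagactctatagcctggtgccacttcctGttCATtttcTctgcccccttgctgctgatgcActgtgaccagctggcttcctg

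Naip5: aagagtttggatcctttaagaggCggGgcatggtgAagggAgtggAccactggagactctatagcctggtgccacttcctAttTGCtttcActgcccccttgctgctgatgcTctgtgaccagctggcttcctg

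Naip2 had 4.45, 4.44 and 4.45 log2 CPM in D316Y cells with LPS and 4.84, 4.13 and 4.52 in WT cells with LPS. Without LPS it had 4.18, 3.73 and 3.47 in D316Y cells and 4.18, 3.72 and 3.78 in WT cells. The LPS libraries were all higher in D316Y cells, while in WT cells replicate 2 with LPS lay just under replicate 1 without. The log2 rise was 0.65 in D316Y cells (SE 0.21, adjusted p = 0.0238, limma) and 0.60 in WT cells (SE 0.21, adjusted p = 0.0368). Both calls were marginal: the adjusted p ranged from 0.00569 to 0.101 in D316Y cells and from 0.0124 to 0.143 in WT cells when single libraries were left out, and it stayed under 0.05 only without unstimulated replicate 1 in D316Y cells and without LPS replicate 2 or unstimulated replicate 1 in WT cells.

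Naip5 had 3.86, 3.86 and 3.63 log2 CPM in D316Y cells with LPS and 3.46, 3.22 and 3.60 in WT cells with LPS. Unstimulated cells had 3.28, 3.55 and 3.63 in D316Y and 3.17, 3.42 and 3.11 in WT. The groups overlapped in WT cells and lay side by side without overlap in D316Y cells. The log2 difference was 0.30 in D316Y cells (SE 0.16, adjusted p = 0.158, limma) and 0.19 in WT cells (SE 0.16, adjusted p = 0.378). Counts of these paralogs are uncertain, because 36.9% of the 50-base stretches of Naip5 transcripts and 19.1% of those of Naip2 occur in other genes, mostly other Naip genes (16.2% and 4.44% of 100-base stretches). How the authors' counting treated reads that fit several genes is not given in the sources used here. The paralog Naip6 did not pass in any comparison, and Naip1, at 4 to 61 reads per library, stayed under the filter on low values.

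Nlrp3, the sensor of potassium efflux and many forms of damage, is the member best known for its induction by LPS at early times. At 24 h it stood at 4.09, 4.23 and 4.54 log2 CPM in D316Y cells and at 4.49, 3.61 and 4.33 in WT cells. Unstimulated levels were 3.75, 4.15 and 3.88 in D316Y cells and 3.66, 4.07 and 3.84 in WT cells. The groups overlapped in both genotypes, and WT replicate 2 with LPS was the lowest of all 12 libraries. The log2 difference was 0.36 in D316Y cells (95% interval -0.11 to 0.83, adjusted p = 0.222, limma) and 0.28 in WT cells (-0.19 to 0.75, adjusted p = 0.340). Without that library, the WT difference was 0.55 and passed (adjusted p = 0.0392).

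Nlrp1b, the sensor cleaved by anthrax lethal toxin, varied most between unstimulated replicates and had the fewest reads in the LPS libraries. It had 216, 147 and 188 reads in D316Y cells with LPS and 154, 86 and 164 in WT cells with LPS. Without LPS it had 273, 757 and 560 reads in D316Y cells and 237, 445 and 268 in WT cells. On the log2 CPM scale these were 2.57, 1.96 and 2.53 in D316Y and 1.84, 1.19 and 2.00 in WT cells with LPS, against 2.39, 3.77 and 3.52 in D316Y and 2.09, 3.23 and 2.71 in WT cells without. Replicate 1 was the lowest unstimulated library of both genotypes, and the groups overlapped in D316Y cells through that library alone.

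The log2 difference of Nlrp1b with LPS was -0.87 in D316Y cells (SE 0.37, limma adjusted p = 0.0787). Without unstimulated replicate 1 of both genotypes it was -1.29 and passed (adjusted p = 0.00157). In WT cells the log2 level fell by 1.0 (SE 0.37, adjusted p = 0.0481), to 0.50 of the unstimulated level. The WT call was marginal, with an adjusted p from 0.0157 to 0.183 when single libraries were left out, and it passed only in the fit without unstimulated replicate 1. Its neighbours on chromosome 11 did not pass in any comparison: Nlrp1a had log2 differences of 0.12 in D316Y and -0.14 in WT cells, and the pseudogene Nlrp1c-ps of -0.92 and -0.40. Only 1.45% of the 50-base stretches of Nlrp1b occur in other genes.

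**Figure D3:**
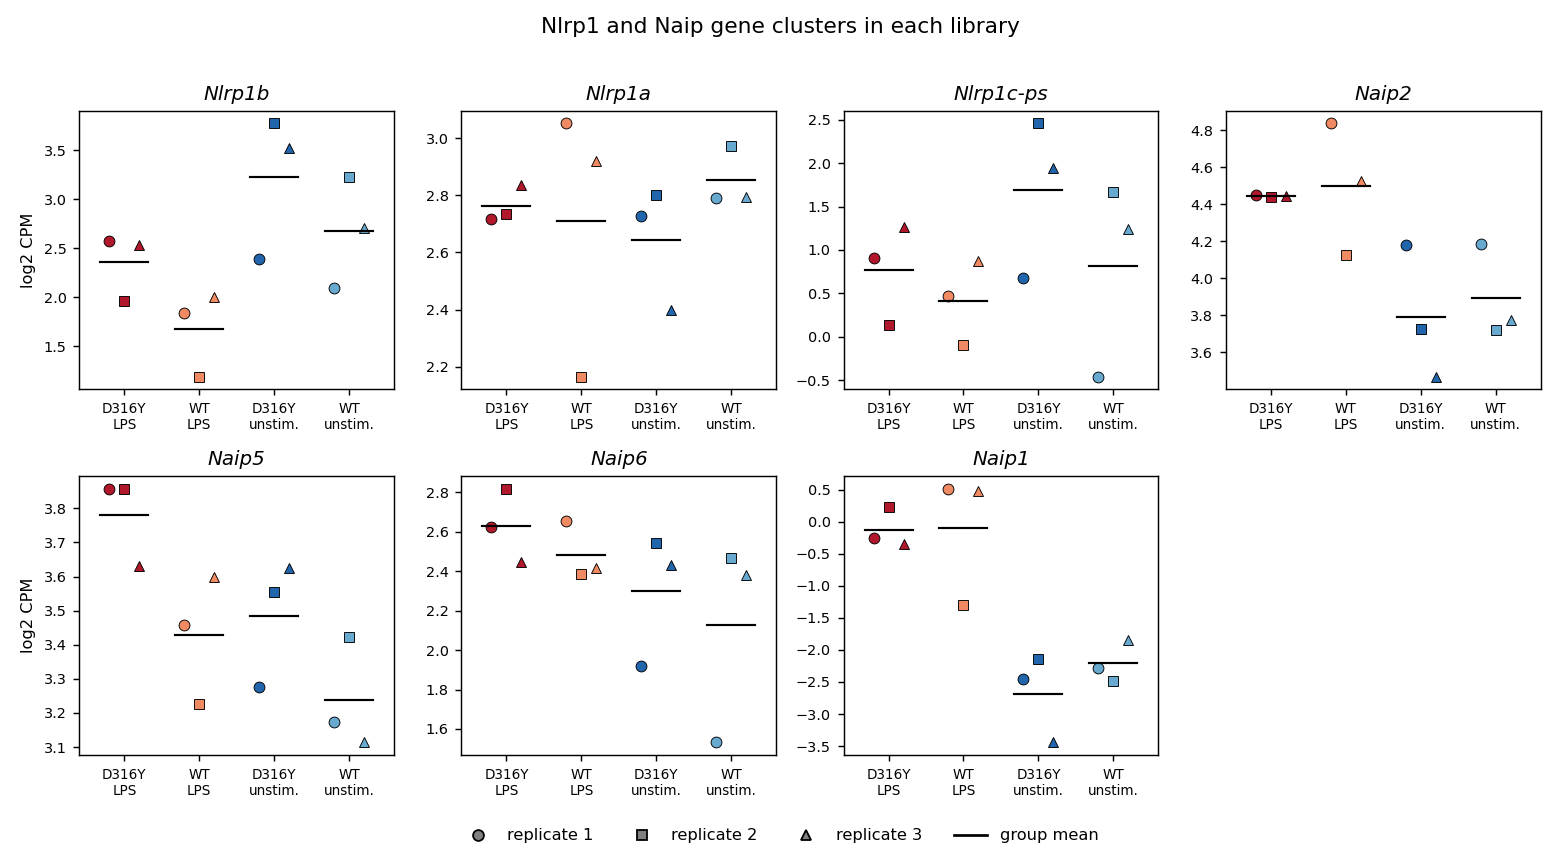
Levels of Nlrp1b and Naip genes and their paralogs in each of the 12 libraries (vertical axis, log2 CPM; points, libraries; bars, group means of 3). Nlrp1b and Nlrp1c-ps are lowest in replicate 1 among the unstimulated libraries of each genotype, and Naip1 is far below its paralogs.

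Pycard encodes ASC, the adaptor that links sensors to caspase-1, and was the most abundant member in reads. With LPS it stood at 7.99, 8.06 and 8.08 log2 CPM in D316Y cells and at 7.65, 8.42 and 8.0 in WT cells. Without LPS it stood at 7.23, 7.65 and 7.69 in D316Y cells and at 6.91, 7.61 and 7.55 in WT cells. All LPS libraries were above the unstimulated libraries of their genotype, with replicate 1 lowest among the unstimulated ones. Pycard had a log2 difference of 0.52 in D316Y cells (SE 0.22, adjusted p = 0.0804, limma) and rose by 0.67 in WT cells (SE 0.22, adjusted p = 0.0300). The D316Y value passed when only the 6 D316Y libraries were fitted (adjusted p = 0.0284), and the WT value did not pass in the same fit of WT libraries (0.0723) or without LPS replicate 2, LPS replicate 3 or unstimulated replicate 1 (0.0703 to 0.139). Of its exons, 485 bases lie opposite to those of Gm45205, and the sources used here do not say whether reads were counted by strand.

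Casp1 and Casp4 are neighbours on chromosome 9 (GRCm38, plus strand; Casp1 at 5298517 to 5307265, Casp4 at 5308828 to 5336783), and both rose with LPS. Their RefSeq promoter windows (GRCm38.p6; 300 bases around the start site) are shown because these 2 genes and Gsdmd had the largest changes. The windows were searched on both strands for an NF-κB motif (GGGNNTTTCC), an interferon-stimulated response element (GAAANNGAAA) and an interferon-γ activated site (TTCNNNGAA). Capitals mark the matches to the NF-κB motif. The Casp4 window, chr9:5308599-5308898 on the plus strand, holds 2, GGGGATTTCC at position -93 and GGAAATGCCC, a match on the opposite strand, at position -14, counted from the start site. The Casp1 window, chr9:5298267-5298566 on the plus strand, holds none.

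Casp4: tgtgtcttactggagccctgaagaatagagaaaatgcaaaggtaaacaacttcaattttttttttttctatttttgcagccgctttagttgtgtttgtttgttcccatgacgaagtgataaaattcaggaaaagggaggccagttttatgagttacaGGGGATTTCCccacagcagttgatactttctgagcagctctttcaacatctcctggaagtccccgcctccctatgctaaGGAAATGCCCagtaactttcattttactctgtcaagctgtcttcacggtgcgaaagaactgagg

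Casp1: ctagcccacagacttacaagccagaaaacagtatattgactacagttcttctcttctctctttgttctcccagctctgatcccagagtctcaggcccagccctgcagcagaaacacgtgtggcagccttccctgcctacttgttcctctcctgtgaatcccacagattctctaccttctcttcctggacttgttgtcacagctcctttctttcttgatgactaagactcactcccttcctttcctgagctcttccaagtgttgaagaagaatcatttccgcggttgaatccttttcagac

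The NF-κB motif occurs in 1.63% of all 32851 windows, the response element in 3.44% and the activated site in 8.30%. Windows were found for 9 of the 10 members, 12 windows in all, and no match to any of the 3 motifs was found in the windows of the 8 members other than Casp4. A match is a description of letters and no evidence of binding.

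Casp4 showed the largest change of the 10. With LPS it stood at 6.34, 6.40 and 6.03 log2 CPM in D316Y cells and at 5.93, 6.39 and 6.29 in WT cells. Without LPS it stood at 4.56, 4.57 and 4.88 in D316Y cells and at 4.72, 4.94 and 4.90 in WT cells. The lowest LPS library was well above the highest unstimulated one. The log2 rise was 1.59 in D316Y cells (SE 0.16, adjusted p = 3.59e-06, limma), a 3.00-fold level (95% interval 2.38 to 3.80). In WT cells it was 1.35 (SE 0.16, adjusted p = 1.77e-05), a 2.55-fold level (2.02 to 3.23).

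Casp1, the protease of the canonical complex, followed. Its levels with LPS were 7.25, 7.22 and 6.90 log2 CPM in D316Y cells and 7.02, 7.46 and 7.17 in WT cells. Unstimulated cells had 5.98, 5.90 and 6.01 in D316Y and 6.09, 6.18 and 6.24 in WT. The LPS libraries were all higher. The log2 rise was 1.16 in D316Y cells (SE 0.14, adjusted p = 2.52e-05, limma) and 1.04 in WT cells (SE 0.14, adjusted p = 7.02e-05), that is 2.24-fold and 2.06-fold.

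Gsdmd, the substrate of both caspases, lies on chromosome 15 (GRCm38, 75862327 to 75867408, plus strand). Its levels were 7.46, 7.63 and 7.31 log2 CPM in D316Y cells with LPS and 7.46, 7.52 and 7.53 in WT cells with LPS. Unstimulated levels were 6.43, 6.21 and 6.41 in D316Y cells and 6.64, 6.20 and 6.46 in WT cells. Again no LPS library reached down to the unstimulated range. Gsdmd rose by 1.11 in D316Y cells (SE 0.14, adjusted p = 3.24e-05, limma) and by 1.07 in WT cells (SE 0.14, adjusted p = 5.31e-05), 2.17-fold and 2.10-fold. In all fits with single libraries left out, Casp4, Casp1, Gsdmd, Aim2 and Nlrc4 passed in both genotypes.

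The second question was whether D316Y cells differed from WT cells. No member passed in either condition. In unstimulated cells 0 of 10 members passed and 0 of 10 had an unadjusted p under 0.05 in limma, while 1 of all 11525 genes passed (0.00868%) and 2.92% had an unadjusted p under 0.05. This depends on the fit: in the authors' deposited values for unstimulated cells, Nlrp1b, Naip5 and Casp1 had an unadjusted p under 0.05, as given below. With LPS 0 of 10 members passed and 2, Nlrp1b and Naip5, had an unadjusted p under 0.05, beside 5 of 11306 genes that passed (0.0442%, with 0.0177% higher and 0.0265% lower) and 6.5% by unadjusted p. In the authors' deposited values with LPS, neither Nlrp1b nor Naip5 had an unadjusted p under 0.05. The groups did not overlap for 1 member without LPS, Casp1 (lower in D316Y cells; 8.13% of all genes did not overlap), and for 1 with LPS, Naip5 (higher in D316Y cells; 12.5% of all genes). The missing calls do not show that the genotypes are alike, and the intervals give the differences that remain possible.

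Nlrp1b had the largest estimated genotype difference of the 10 in both conditions, and it moved with single libraries. With LPS its mean was 2.36 ± 0.34 log2 CPM in D316Y cells and 1.67 ± 0.43 in WT cells (SD, n = 3 each), a difference of 0.68 (95% interval 0.11 to 1.25, unadjusted p = 0.0228, adjusted p = 0.688, limma). Without LPS it was 3.23 ± 0.74 in D316Y cells and 2.67 ± 0.57 in WT cells, a difference of 0.55 (-0.37 to 1.47, adjusted p = 0.942). The ranges of the genotypes overlapped in both conditions. With single libraries left out the difference lay between 0.437 and 0.877 with LPS and between 0.261 and 0.973 without, and it passed in none of these fits. Across genes, same-numbered unstimulated libraries had correlated deviations from their group means, least so for replicate 3. For Nlrp1b the D316Y library was the higher one at each number, by 0.30, 0.54 and 0.82. With the replicate number as a block, the same difference of 0.55 had an unadjusted p of 0.00678 and an adjusted p of 0.145. Left without both replicate 1 libraries, it was 0.68 with an adjusted p of 0.212. In the authors' deposited table the unstimulated difference of Nlrp1b is 0.749 (interval 0.31 to 1.19, unadjusted p = 0.00197, adjusted p = 0.139). With LPS it is 0.514 there (unadjusted p = 0.0642, adjusted p = 0.435).

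Naip5 had means of 3.78 ± 0.13 log2 CPM in D316Y cells and 3.43 ± 0.19 in WT cells with LPS, a difference of 0.35 (95% interval 0.01 to 0.70, unadjusted p = 0.0465, adjusted p = 0.757, limma). All D316Y libraries were above all WT libraries there, by a narrow margin. Without LPS the difference was 0.25 (-0.14 to 0.63, adjusted p = 0.942). Casp1 was at 5.96 ± 0.055 in D316Y and 6.17 ± 0.075 in WT cells without LPS, a difference of -0.21 (-0.53 to 0.11, adjusted p = 0.942). With the replicate number as a block these 2 unstimulated differences did not pass either, with an unadjusted p of 0.111 for Naip5 (adjusted p = 0.376) and 0.0504 for Casp1 (adjusted p = 0.273). Without both unstimulated replicate 1 libraries Casp1 was at -0.25 with an unadjusted p of 0.0278 (adjusted p = 0.321). With LPS the difference of Casp1 was -0.09 (-0.41 to 0.23). The authors' deposited table gives 0.365 for Naip5 in unstimulated cells (interval 0.0573 to 0.673, unadjusted p = 0.0224, adjusted p = 0.245). With LPS their value for Naip5 is 0.272, with an interval that spans 0 (-0.0177 to 0.561, unadjusted p = 0.0643, adjusted p = 0.435). For Casp1 in unstimulated cells they give -0.26 (interval -0.5 to -0.0198, unadjusted p = 0.0353, adjusted p = 0.274). No member has an adjusted p under 0.05 in either of the authors' deposited tables.

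The other 7 members had genotype differences between -0.18 and 0.23 without LPS and between -0.05 and 0.20 with LPS. For Nlrp3 the difference was 0.07 (95% interval -0.33 to 0.47) without LPS and 0.14 (-0.33 to 0.62) with LPS. The authors' deposited tables have the opposite sign for Nlrp3 with LPS (-0.0197). They also do for Aim2 without LPS (0.104, against -0.04 here). For Gsdmd it was -0.08 (-0.47 to 0.31) and -0.04 (-0.30 to 0.23), and for Casp4 -0.18 (-0.54 to 0.17) and 0.05 (-0.28 to 0.38). The interval of Gsdmd with LPS was the narrowest of the 10 there.

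**Figure D4:**
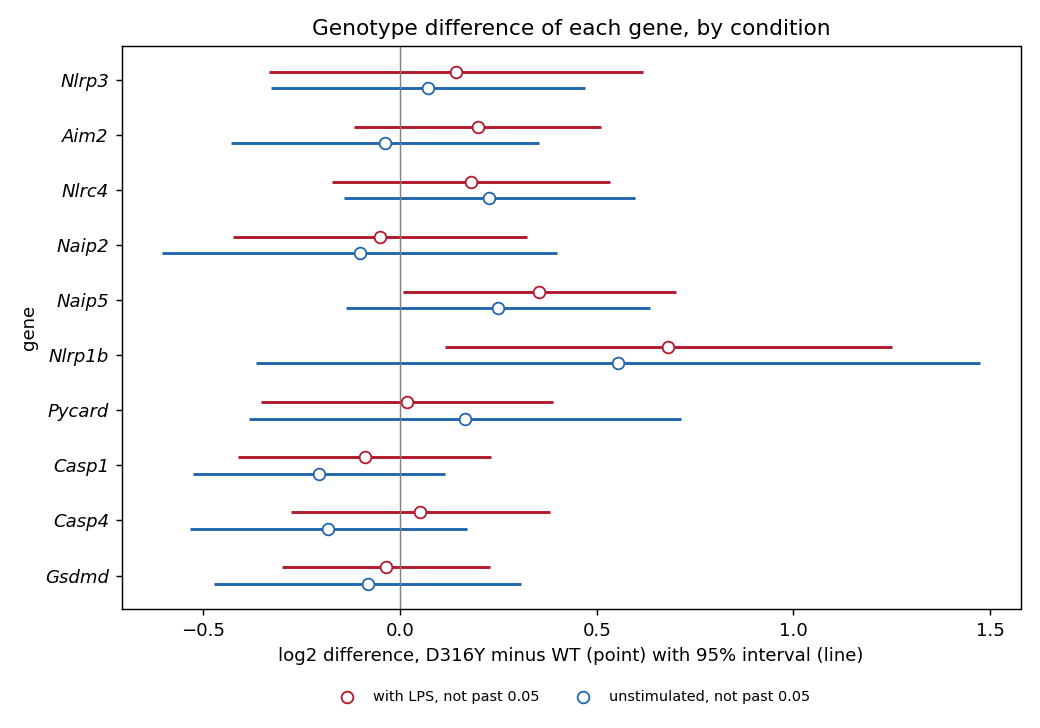
Genotype difference of each member (horizontal axis, log2 difference, D316Y minus WT; points, limma estimates; bars, 95% intervals) with LPS and without. Every interval without LPS spans 0; with LPS those of Nlrp1b (0.11 to 1.25) and Naip5 (0.01 to 0.70) lie above it, and no adjusted p is under 0.05.

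The third question was whether the LPS change itself differed by genotype, tested as an interaction in the fit of all 12 libraries. It passed for 0 of 10 members and for 0 of 11918 genes (0%) in limma; 0 members and 2.11% of all genes had an unadjusted p under 0.05. The largest estimates were 0.24 for Aim2 (95% interval -0.24 to 0.72) and 0.23 for Casp4 (-0.24 to 0.71), each with an adjusted p of 0.999. Without unstimulated replicate 1 of both genotypes that of Aim2 was 0.0987 and that of Casp4 0.25. Thus, although Pycard and Nlrp1b passed in WT cells and not in D316Y cells, neither change was shown to differ, with interactions of -0.15 (-0.82 to 0.53) and 0.13 (-0.99 to 1.25), the Nlrp1b one being 0.00073 without those 2 libraries.

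A wider list of 70 further genes of the pathway, grouped by role, was read from the same fits. Of these 62 had a row and 60 were tested for LPS; Nlrp6, Nlrp9b, Nlrp12, Gsdma, Ninj2, Trim31, Mark4 and Gbp5 were not analysed here. With LPS 24 rose, 13 fell and 23 did not pass in D316Y cells, and 23 rose, 13 fell and 24 did not pass in WT cells, where 19.2% of all genes rose and 18.9% fell in D316Y cells and 17.8% and 18.7% in WT cells. Their median log2 difference was 0.13 in D316Y and 0.02 in WT cells, against the 0.67 and 0.65 of the members. Scaled per total reads, 5 of the calls in D316Y cells were lost and 17 gained, and in WT cells 10 were lost, 18 gained and 2 more, those of Nlrc5 and Gpsm3, turned negative.

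All 3 cytokine genes of the list rose in both genotypes, and Il1a and Il1b had the largest estimates of the wider list. Il1b had 41272 to 51084 reads in D316Y and 35807 to 50721 in WT libraries with LPS, against 120 to 181 and 100 to 263 without. Its log2 rise was 8.91 in D316Y cells (SE 0.23, limma) and 8.20 in WT cells (SE 0.23). Il1a had 1315 to 2372 reads in D316Y and 1272 to 1774 in WT libraries with LPS, against 0 to 20 and 2 to 25 without, so its fold is not well determined. Il18, whose product is matured by caspase-1 as is that of Il1b, rose by 1.64 in D316Y cells and 1.54 in WT cells.

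Other sensors went both ways, 3 rising and 2 falling of 7 tested in each genotype. Mefv, which encodes pyrin, rose by 3.62 in D316Y cells and 3.63 in WT cells (SE 0.15 each). Nlrc3, a negative regulator of cytosolic nucleic acid sensing, fell by 2.49 and 2.39. Nlrp10 had 0 to 8 reads in D316Y and 2 to 17 in WT libraries with LPS, against 75 to 270 and 131 to 147 without.

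The guanylate-binding proteins and immunity-related GTPases, which expose the LPS of vacuolar bacteria to the non-canonical caspase, mostly passed as higher. Of this list, which also holds the transcription factors Irf1 and Irf8, 6 of 7 tested rose in D316Y cells and 5 of 7 in WT cells, with 0 falling in either (limma; 0 at an unadjusted p under 0.05 as well), beside the 19.2% and 17.8% of all genes that rose. Gbp2 rose by 2.55 in D316Y cells (adjusted p = 1.17e-05) and by 1.88 in WT cells (adjusted p = 0.000175). Gbp3 rose by 2.13 and 1.36, Gbp7 by 1.89 and 1.29, and Gm12250 (IRGB10) by 1.83 and 1.16. In unstimulated cells all 7 had a negative genotype difference, with a median of -0.55, and 6 of 7 did not overlap between genotypes (8.13% of all genes). None passed, and 1 (Gm12250) had an unadjusted p under 0.05.

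Among pore formers and membrane genes, Gsdme, the gasdermin cut by caspase-3, fell by 1.58 in D316Y cells and by 1.32 in WT cells, opposite to Gsdmd. Among negative regulators, Serpinb9, an inhibitor of granzyme B, rose by 1.59 and 1.54. Serpinb1a, an inhibitor of neutrophil proteases, fell by 3.13 and 2.65, with 1 to 14 reads in the LPS libraries against 40 to 64 in the unstimulated ones. Bcl2, which restrains cell death, fell by 2.73 and 1.70. Of 27 licensing factors and regulators of Nlrp3, 7 rose and 7 fell in D316Y cells and 6 rose and 7 fell in WT cells.

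**Figure D5:**
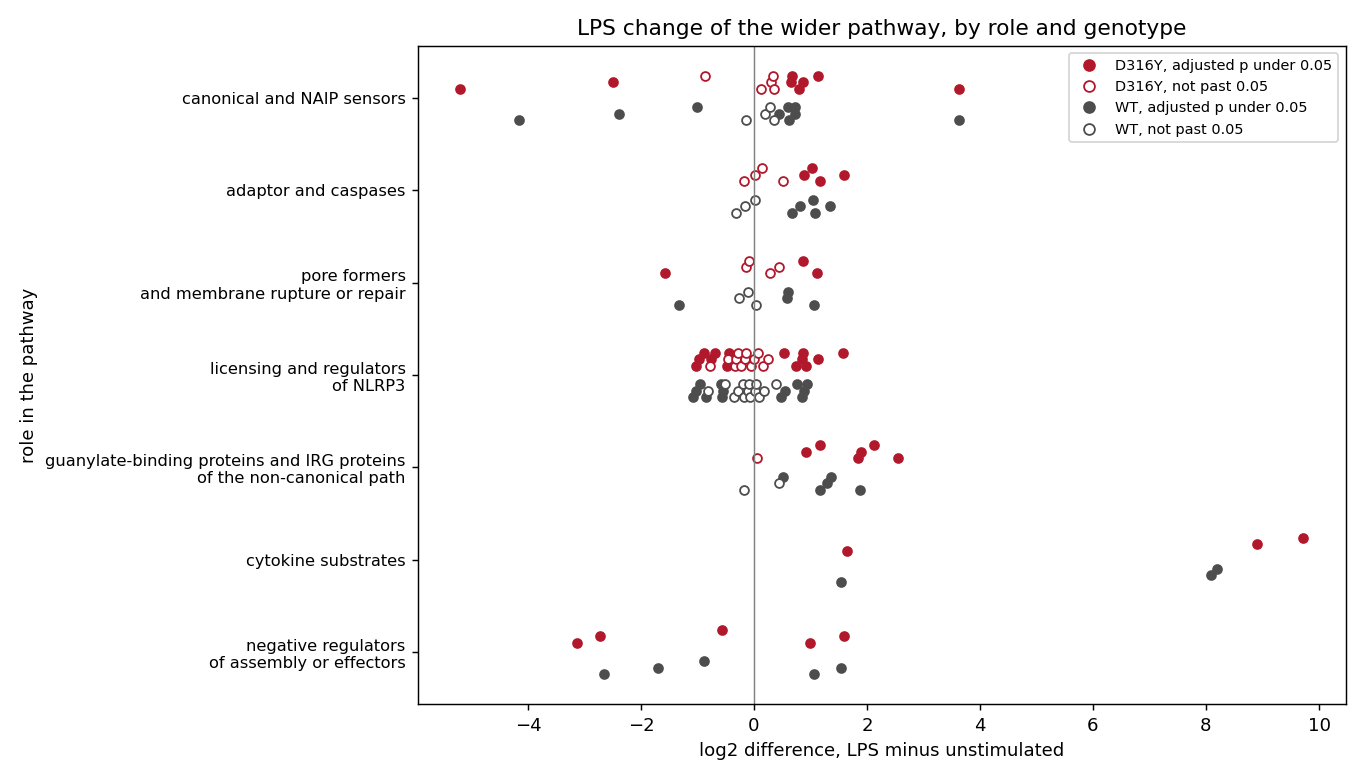
Change with LPS of the 10 members and the tested genes of the wider pathway list, by role (horizontal axis, log2 difference, LPS minus unstimulated; filled points passed an adjusted p under 0.05), in D316Y and WT cells. The cytokines Il1a and Il1b lie far to the right of all other genes, and the guanylate-binding group lies mostly to the right of 0.

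Between genotypes none of the pathway genes passed: 0 of the 59 tested in unstimulated cells and 0 of the 57 tested after LPS (limma; 5 in each had an unadjusted p under 0.05, as had 2.92% of all genes without LPS and 6.5% with it). Those with the smallest unadjusted p without LPS were Panx1, a membrane channel (-1.01 on the log2 scale), Bcl2 (0.77), Mefv (0.49) and Gm12250 (-0.70). With LPS they were Mefv (0.48), Il1a (0.51), Nlrc5 (0.41) and Il1b (0.33). The interaction passed for 0 of 60, with 4 at an unadjusted p under 0.05 (2.11% of all genes): Nlrc5 (0.68), Gbp3 (0.77), Irgm1 (0.73) and Il1b (0.71).

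Across the 12 libraries, the genes most like each member were found by the root mean square difference of log2 CPM after centring each gene, among 9711 genes. The libraries share the LPS contrast, so this describes a pattern only. Pycard had the closest match, Bud31 (0.0463), a splicing factor, followed by Vps29 (0.0670). Aim2 was closest to Ninj1 (0.0771), which encodes the protein that ruptures the plasma membrane at the end of pyroptosis and is on the pathway list. Ninj1 rose by 0.87 in D316Y cells (SE 0.14, adjusted p = 0.000279, limma) and by 0.60 in WT cells (adjusted p = 0.00460). Genes of the proteasome were among the 3 nearest for each of Gsdmd (Psmb3, 0.0768), Casp1 (Psmb2, 0.110) and Casp4 (Psme2, 0.103). Naip5 was nearest to Dop1b (0.104) and Nlrc4 to Lipo3 (0.136). Nlrp1b had no close match, its nearest being Trim33 at 0.230.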

How the data were processed

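RNA from 12 mouse macrophage libraries was analysed from the 2 tables the authors deposited, each with the log2 CPM of all 12 libraries (identical between tables) and, for 1 genotype comparison, log2 fold change, p-value and adjusted p-value, per the file headers. The submitters' processing notes name limma, edgeR, featureCounts 1.4.6-p5, Subread, STAR 2.5.1a and bcl2fastq without their roles. Not given in the sources used here were genome build, annotation, strand setting and how reads fitting several genes were counted. The 12493 rows held 52 repeated identifiers, leaving 12441 genes, all found in GENCODE M21 (GRCm38), which gave positions and exon lengths.

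Each deposited log2 value equals reads plus 0.5, divided by a scaled library size, on the log2 scale, and 100% of values under 200 reads lay within 0.01 of a whole read. Reads recovered this way gave the depth, RPKM and voom alternative. Intervals cover the spread between libraries only.

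limma 3.58.1 (R 4.3.3; eBayes with trend and robust, two-sided) was run on log2 CPM for genes whose mean reached 0 log2 CPM in 1 or more compared groups. Genotype comparisons used their 6 libraries, and LPS effects and the interaction 1 fit of 12. Only the fit of 6 libraries was run on simulated counts, with a fixed setting of spread for all genes. The fit of 12 and the interaction were not run on them, and the outcome is not given here. Motifs, alignments and shared stretches were computed with Python 3.11.15, pandas 2.3.3 and Biopython 1.88 from RefSeq promoter windows and GENCODE transcripts.

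Pairing was checked by the correlation across genes of same-numbered libraries' deviations from their group means. It was 0.606, 0.527 and 0.154 between unstimulated D316Y and WT libraries, so same-numbered libraries deviated alike, least so for replicate 3. The deviations of a group sum to 0, so these values are not independent of each other. The labels do not say what the replicate numbers stand for. The part of the replicate 1 libraries, with their lower share of mitochondrial reads, was not tested. All tests were fitted without pairing, and the fit with the replicate block is an alternative. The correlation was at most 0.0567 between LPS groups. Between LPS and unstimulated libraries it was 0.340, 0.163 and -0.0302 in WT cells and -0.164, -0.211 and -0.0658 in D316Y cells.

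All 10 members are named. Of the pathway list, up to 12 passing genes with the largest change per comparison were eligible for naming, plus up to 4 with the smallest unadjusted p where fewer than 4 passed, and a selection is printed. The members and lists were chosen with earlier results of these data known. Alternatives covered filters, moderation, samples fitted, scaling, pseudocount, voom weights, the replicate block and left-out libraries. The nearest genes of Naip2 and Nlrp3 are not reported here.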

Additional observations from a re-analysis of the deposited data

How the results depend on the processing

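Of the members' LPS changes, those of Casp4, Casp1 and Gsdmd passed under every alternative run; Aim2 and Nlrc4 lost their calls only per total reads. Scaled per total reads, 4 members passed in D316Y cells (6 with the authors' scaling) and 4 in WT cells (8), and the differences of Nlrp3 (-0.16 in D316Y, -0.22 in WT cells) and Naip5 (-0.22 and -0.32) turned negative. Scaled so, 2 genotype differences near 0 also changed sign, to 0.0076 for Aim2 without LPS and 0.0053 for Gsdmd with LPS. Without both unstimulated replicate 1 libraries that of Aim2 without LPS was 0.0991 and the interaction of Gsdmd -0.016. With single libraries left out, 5 to 7 members passed in each genotype for LPS (5 in WT cells without LPS replicate 3) and 0 passed in every genotype and interaction fit. The Nlrp1b fall in WT cells had adjusted p values of 0.0531 with library medians made equal, 0.0674 without trend and robust moderation and 0.0946 with voom weights. Naip2 in WT cells had 0.0548 without trend and 0.0605 in the fit of 6 libraries.

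Left-out libraries turned the sign of small genotype differences. Without LPS the ranges were -0.167 to 0.0964 for Aim2, -0.0401 to 0.178 for Nlrp3, -0.296 to 0.0587 for Naip2, -0.0581 to 0.311 for Pycard and -0.198 to 0.0206 for Gsdmd. With LPS they were -0.0860 to 0.165 for Casp4, -0.189 to 0.0330 for Casp1, -0.117 to 0.0432 for Gsdmd, -0.235 to 0.120 for Naip2, -0.17 to 0.22 for Pycard and -0.12 to 0.32 for Nlrp3. For the interaction they were -0.147 to 0.0648 for Nlrc4, -0.0556 to 0.163 for Gsdmd, -0.20 to 0.25 for Nlrp3, -0.29 to 0.42 for Nlrp1b, -0.13 to 0.24 for Naip2 and -0.335 to 0.0757 for Pycard. Nlrp1b, Naip5 and Nlrc4 kept positive genotype differences in both conditions in each of these fits.

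The replicate block changed 1 call of the members, Pycard with LPS in D316Y cells (limma adjusted p = 0.0139). There the deviations of same-numbered libraries were not positively correlated. Over all genes, 1 gene passed between unstimulated genotypes, against 6 with the block and 0 to 10 over the alternatives. With LPS 5 passed, against 1 to 22, the 22 without WT LPS replicate 2. Per total reads, 6959 genes passed for LPS in D316Y cells (4543 with the authors' scaling) and 6862 in WT cells (4347). The cause of these changes was not tested. With 3 libraries a group, genotype differences of the members as large as their intervals were not resolved.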
